A study of Mus musculus with 2 samples.

Results

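Genes of the TGF-beta, activin and BMP pathway were followed between the 2 arrays of this series, from the ligands through the receptors and secreted antagonists to the SMAD proteins and the ID genes. The list held 53 genes, named by their role in the pathway but drawn up with earlier results of these data known, and 50 of them were measured, with 103 probe sets, out of 18193 named genes on the array; the other 3 were not analysed here. Young mouse embryonic fibroblasts (MEFs) at passage 2, from C57/BL6 embryos of embryonic day 13.5, were transfected with GapmeR Control, a scrambled oligonucleotide without a target, or with GapmeR AK156230, an LNA oligonucleotide that directs RNase H to the long noncoding RNA AK156230. Each transfection was hybridized to 1 array, and both arrays hold cells that went through transfection; untransfected cells and further GapmeRs were not analysed here. The question addressed was which mRNAs differ after AK156230 is knocked down, a lncRNA that the study followed in cellular senescence.

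Ligands of this family are secreted dimers. A type II receptor binds the ligand and phosphorylates a type I receptor, which in turn phosphorylates receptor SMADs, SMAD2 and SMAD3 for TGF-beta and activin or SMAD1, SMAD5 and SMAD9 for BMPs, and these enter the nucleus with SMAD4. In fibroblasts TGF-beta is known for driving matrix synthesis and the myofibroblast state, and BMPs for inducing the ID genes.

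Signals are MAS5 values on a linear scale as deposited, and each log2 ratio sets the GapmeR AK156230 array over the GapmeR Control array. Where several probe sets named a gene, the one with the highest mean log2 signal stood for it. With 1 array per condition no difference has a replicate check and no p-value is given: "higher" and "lower" compare these 2 arrays, 2-fold is the threshold that the study used, and signals of different genes are not set against each other as levels. The median signal was 54.80 on the Control array and 50.95 on the AK156230 array, and 47 of the 50 genes had a brighter signal at or above the median of that array (called bright here). No detection calls were in the table, and the annotation used here paired no probe set with AK156230, so the knockdown itself was not checked on these arrays. In whole-culture RNA, fewer cells of a type and less RNA per cell cannot be told apart.

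In all, 3 of the 50 genes were higher by 2-fold or more with GapmeR AK156230 (Bmp2, Inhba and Acvrl1) and 5 were lower (Fstl1, Tgfbr3, Smurf2, Bmp4 and Gdf10), while 42 lay within 2-fold. Because the list was made with earlier results in view, its shares are a description beside the background. Higher genes were 6.00% of the list against 1.59% of all named genes, and 1.90% of the 12319 bright ones. Lower genes were 10.0% of the list against 3.85% of all named genes, and 4.92% of the bright ones. All 8 were bright. The background depends on the scaling: 70.8% of all named genes past 2-fold were lower in the signals as deposited and 60.0% once both arrays were scaled to the same median (388 higher and 583 lower), whereas the counts for the pathway were 3 and 5 under each scaling. The median log2 ratio was -0.20 over the list and -0.07 over all named genes. In the list 18 genes lay above 0 and 32 below, and of all named genes 41.2% lay above 0. Scaling to the same median adds 0.105 to every log2 ratio, which turns Tgfb3, Bmpr2 and Bambi to above 0.

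**Figure D1:**
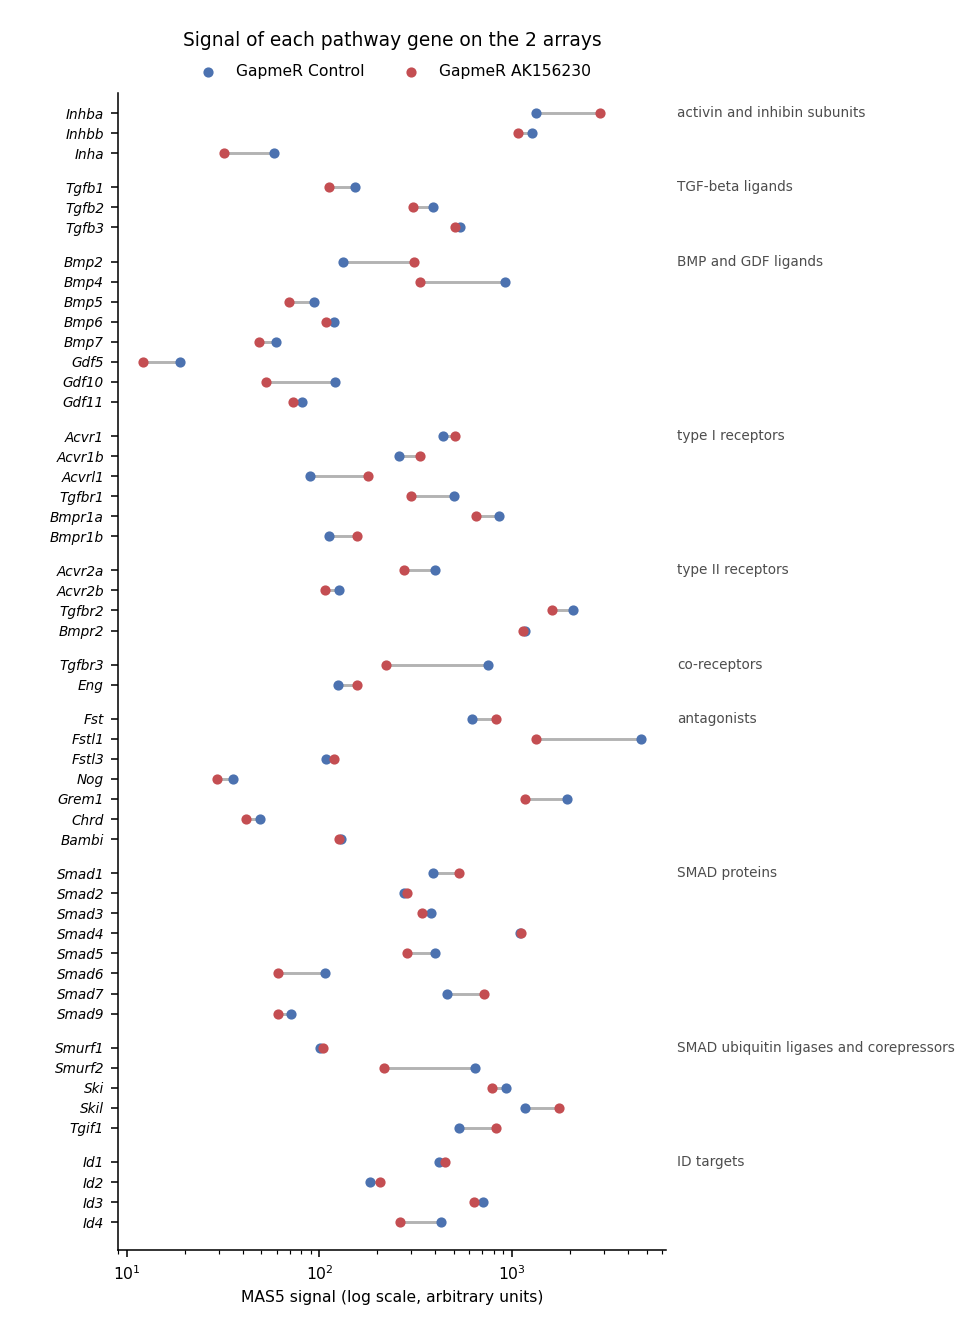
MAS5 signal of the 50 measured pathway genes on a log axis, grouped by role, with a blue point for GapmeR Control, a red point for GapmeR AK156230 and a grey line joining the points of a gene. The longest lines are those of Fstl1 (4687.26 to 1321.59) and Tgfbr3 (751.62 to 221.52), and none of the 8 SMAD proteins reaches 2-fold.

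Among the activin and inhibin subunits, Inhba was higher and the other two were not. Inhba encodes the beta A subunit, which forms activin A as a homodimer, and lies on chromosome 13 of GRCm38.p6 from 16004256 to 16031609. Its signal was 1334.51 on the Control array and 2854.10 on the AK156230 array, a 2.14-fold difference (log2 ratio 1.10). A second probe set was dim on both arrays, at 28.50 and 23.83, and the mean of both probe sets gave a log2 ratio of 0.42, so that the gene is past 2-fold by its bright probe set only. By RT-qPCR the study reported an increase of Inhba after AK156230 knockdown. Inhbb, the beta B subunit, had signals of 1271.97 and 1077.11 and a log2 ratio of -0.24, and its other probe set was at -0.30. Inha, the alpha subunit that turns an activin chain into inhibin, had 58.32, just above the median of its array, and 32.04, under the median, and a log2 ratio of -0.86.

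The TGF-beta ligands themselves all had ratios below 1 by their representative probe sets. Tgfb3 had 537.16 on the Control array and 507.20 on the AK156230 array, and Tgfb2 had 388.83 and 305.02. Probe sets of Tgfb2 disagreed in sign while all were bright, at log2 ratios of -0.35, -0.16, 0.27 and -0.32, so the direction of Tgfb2 depends on the probe set. Tgfb1 was at -0.45 by its brighter probe set (152.84 and 112.13) and at -0.75 by the other (88.40 and 52.46).

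Among the BMP and GDF ligands the genes past 2-fold went both ways. Bmp2, a ligand of the bone-inducing BMP pair with Bmp4, had signals of 131.86 on the Control array and 308.84 on the AK156230 array, 2.34-fold higher (log2 ratio 1.23; chromosome 2 from 133552159 to 133562896). Bmp4 went the other way, from 916.87 to 330.50, 2.77-fold lower (log2 ratio -1.47; chromosome 14 from 46383525 to 46390669). Both encode closely related ligands for the same type I receptors, BMPR1A and BMPR1B. Gdf10, also known as BMP3B, was 2.28-fold lower, with 120.65 and 52.92 (log2 ratio -1.19; chromosome 14 from 33923587 to 33936514). Its lower signal lies near the array's median, and with the 25th percentile of all signals (24.33) added to every signal its log2 ratio was -0.91. Each of these 3 genes had a single probe set, so none has a second reading. Bmp5, Bmp6, Bmp7, Gdf5 and Gdf11 had log2 ratios from -0.65 (Gdf5, dim at 18.97 and 12.07) to -0.13 (Bmp6). Of the 14 ligand and subunit genes measured, 2 were higher and 2 lower by 2-fold or more. Each was a share of 14.3%, against 1.59% of all named genes higher and 3.85% lower. Log2 ratios were below 0 in 12 of the 14, and in 10700 of the 18193 named genes.

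Among the type I receptors, which carry the signal into the cell, Acvrl1 was the only gene past 2-fold by its representative probe set. Acvrl1 encodes ALK1, a receptor for BMPs best known in endothelium, on chromosome 15 from 101128522 to 101145336. Its brighter probe set had 89.13 on the Control array and 178.76 on the AK156230 array, just past the threshold at 2.01-fold higher. The other probe set went further in the same direction, from 32.93 to 151.53 (log2 ratio 2.20), and with 24.33 added to every signal the first was at 0.84. Of 8 endothelial markers, 1 was higher past 2-fold (12.5%, a single gene, against 1.59% of all named genes) and none was lower. The higher gene was Kdr, with 44.54 and 90.91, named after its value was seen. The markers had a median log2 ratio of 0.05, and their part in this result was not tested. Their summed signal was 239.8 and 291.6, and the defining markers Pecam1 (33.63 and 27.76) and Cdh5 (25.41 and 26.89) were under the array median on both arrays. No probe set of either array was at 0, the lowest signal being 1.0, so a signal alone does not show that a gene is expressed. Eng, the endothelial co-receptor endoglin, had 125.36 and 156.88 (log2 ratio 0.32), with 0.23 at its other probe set.

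Tgfbr1, the type I receptor of TGF-beta, was at -0.74 (500.19 on the Control array and 299.36 on the AK156230 array), the lowest ratio among the type I receptors. Bmpr1a, a BMP receptor, had 854.78 and 651.44, and its 6 probe sets, 4 of them bright, ranged from -0.39 to 0.08. Acvr1 (ALK2), Acvr1b (the activin receptor ALK4) and Bmpr1b were at 0.21, 0.38 and 0.48. Another probe set of Bmpr1b, dim at 12.16 and 34.97, was past 2-fold at 1.52, and the mean over its probe sets was 0.76. All type II receptors were within 2-fold and had ratios under 1 by their representative probe sets, but Acvr2b (0.20) and Bmpr2 (0.09) were above 0 when all probe sets were averaged. Tgfbr2, the TGF-beta receptor, had 2079.65 and 1612.90 (log2 ratio -0.37), Acvr2a and Acvr2b, which bind activins, were at -0.55 and -0.25 (the other probe sets of Acvr2b, both dim, were at 0.48 and 0.36), and the BMP receptor gene Bmpr2 was at -0.04 by its brightest probe set and 0.39 by another bright one.

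Tgfbr3 had the largest difference among the receptor genes by representative probe sets, although the other bright probe set of Acvrl1 (2.20) lay further from 0. It encodes betaglycan, a co-receptor that presents TGF-beta2 to TGFBR2 and also binds inhibin, and spans 183.1 kb of chromosome 5 from 107106567 to 107289629. The signal was 751.62 on the Control array and 221.52 on the AK156230 array, 3.39-fold lower (log2 ratio -1.76). Its second probe set was at 6.79 and 9.09, dim on both arrays, and averaging the 2 gave -0.67. Over the 12 receptor and co-receptor genes, 1 was higher and 1 lower by 2-fold or more, with a median log2 ratio of -0.14. Each was a share of 8.33%, against 1.59% of all named genes higher and 3.85% lower.

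**Figure D2:**
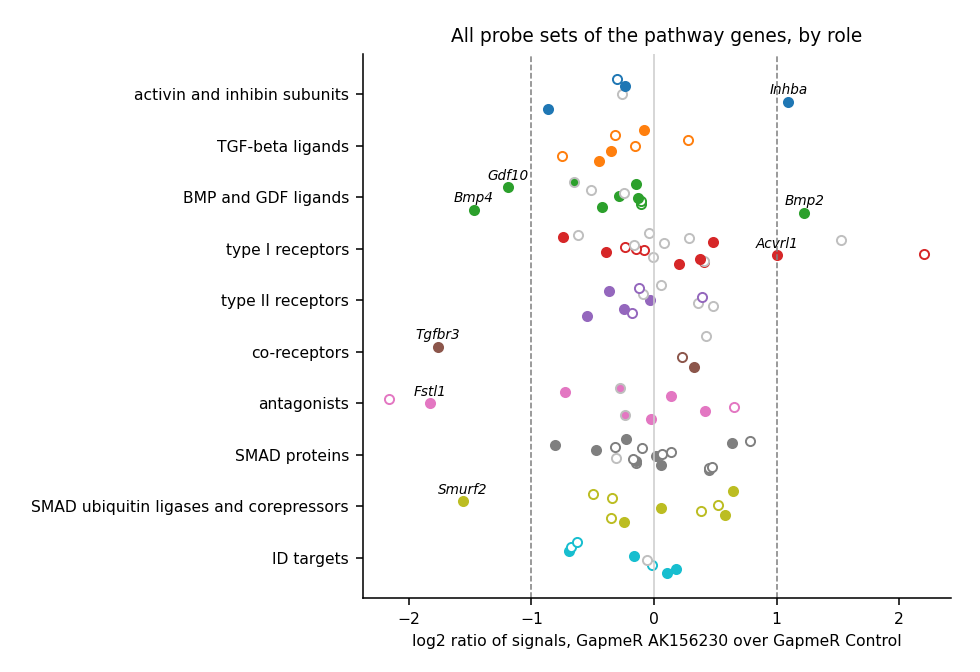
log2 ratio (AK156230 over Control) for each of the 103 probe sets, in rows by role, with the representative probe set of a gene filled, the others open, dim probe sets edged in grey and dashed lines at 2-fold. Both probe sets of Fstl1 (-1.83 and -2.16) lie past 2-fold, whereas Smurf2 has 1 of 3 there.

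Secreted antagonists set how much ligand reaches the receptors, and here Fstl1 was far lower while the classical BMP and activin antagonists were within 2-fold. Fstl1, a secreted glycoprotein of the follistatin-like family, lies on chromosome 16 from 37777055 to 37836516. It went from 4687.26 on the Control array to 1321.59 on the AK156230 array, 3.55-fold lower (log2 ratio -1.83), the largest decrease among the 50 genes. A second bright probe set went from 3461.86 to 774.96, 4.47-fold lower, so both readings place the gene past 2-fold. Fst encodes follistatin, which binds activin. It pointed the other way in both of its probe sets, with 618.76 and 826.69 (log2 ratio 0.42) and with 430.64 and 675.48 (0.65). Fstl3, a further activin-binding protein, was at 0.14. Grem1, encoding the BMP antagonist gremlin, had 1930.17 and 1167.00, 1.65-fold lower (log2 ratio -0.73). Noggin and chordin (Nog and Chrd) were dim on both arrays at log2 ratios of -0.28 and -0.24, and Bambi, a receptor decoy without a kinase domain, was at -0.03.

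None of the 8 SMAD proteins was past 2-fold: their log2 ratios ran from -0.81 to 0.64 with a median of -0.06. Smad4, the partner shared by both branches, had 1097.86 on the Control array and 1112.42 on the AK156230 array, and its 3 probe sets were between 0.02 and 0.14. The TGF-beta and activin SMADs were close to that, Smad2 at 0.06 (and -0.14 at its other bright probe set) and Smad3 at -0.15. Of the BMP SMADs, Smad1 was at 0.45, 0.45 and 0.48 in its 3 probe sets, Smad5 at -0.47 and Smad9 at -0.23. The inhibitory SMADs differed in sign. Smad7, which blocks type I receptors and is itself induced by TGF-beta, had 460.03 and 716.49, 1.56-fold higher (log2 ratio 0.64, and 0.79 at its other probe set), and Smad6, which acts mainly on the BMP branch, had 106.90 and 61.00, 1.75-fold lower (log2 ratio -0.81).

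Of the genes that turn SMAD activity down, Smurf2 was lower past 2-fold by its representative probe set and the others were within the threshold. Smurf2 encodes a ubiquitin ligase for SMADs and TGF-beta receptors, spans 100.7 kb and lies on chromosome 11 from 106820061 to 106920747. The probe set had 640.34 on the Control array and 217.06 on the AK156230 array, 2.95-fold lower (log2 ratio -1.56). The other two, also bright, had 225.46 and 177.44 (-0.35) and 87.57 and 61.90 (-0.50), with a mean over the probe sets of -0.80, so the size of the difference for Smurf2 depends on the probe set while its sign does not. Its relative Smurf1 was at 0.06 by its representative probe set and at 0.53 by another bright one (46.93 and 67.54). Skil, encoding the SMAD corepressor SnoN, had 1169.10 and 1751.78 (log2 ratio 0.58), and Tgif1, a homeodomain corepressor, 529.53 and 826.50 (log2 ratio 0.64). Ski, the corepressor related to SnoN, was at -0.25.

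The ID genes encode helix-loop-helix proteins without a DNA-binding region and are the best known direct targets of BMP SMADs. None was past 2-fold. Id3 had 707.10 on the Control array and 632.64 on the AK156230 array (log2 ratio -0.16), and Id1 had 417.82 and 450.48 (0.11). Id2 was at 0.18 by its representative probe set and at -0.02 by another bright one. Id4 was lower in all 3 of its probe sets, at -0.69, -0.68 and -0.62, with 424.72 and 262.56 for the brightest.

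Repeat readings within a gene give a scale for these numbers. In 25 genes with 2 or more bright probe sets, the log2 ratios of the 2 brightest differed by a median of 0.21 and with an SD of 0.295 per probe set, and the widest gap was 1.21 (Smurf2). Of 35 further bright probe sets, 31 shared the sign of the representative one and 4 had the opposite sign (in Tgfb2, Bmpr2, Smad2 and Id2). This spread is that of probe sets on the same RNA and not that of cultures, and 18 of the 50 genes, Bmp2, Bmp4 and Gdf10 among them, had only 1 probe set.

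**Figure D3:**
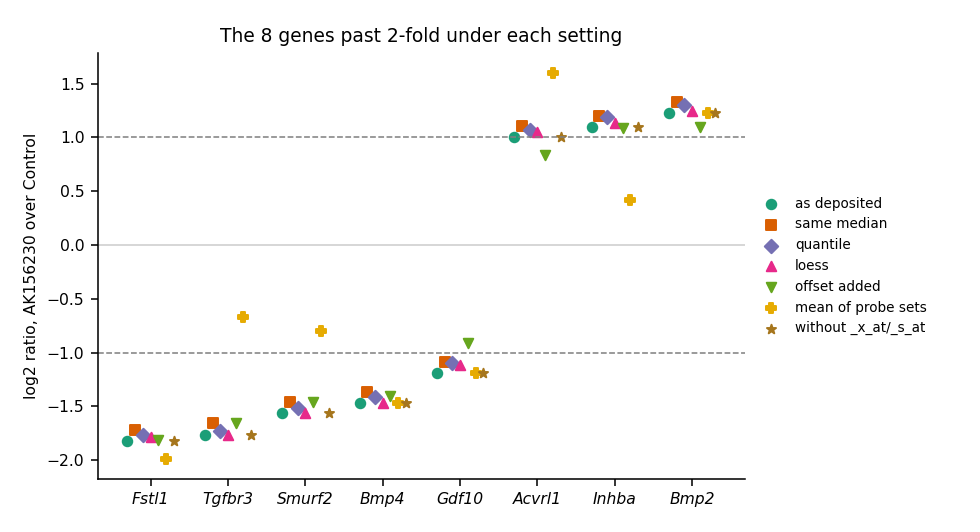
log2 ratio of the 8 genes past 2-fold in the deposited signals and under 6 other settings, a marker for each setting and dashed lines at 2-fold. Fstl1, Bmp4 and Bmp2 stay past 2-fold in every setting plotted, while Inhba (0.42), Tgfbr3 (-0.67) and Smurf2 (-0.80) lie within it when all probe sets are averaged. Bmp4, Bmp2 and Gdf10 have only 1 probe set, so averaging or leaving out probe sets could not move them.

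Promoter sequences from RefSeq (GRCm38.p6, 250 bases before to 50 after a transcript start) were held for 36 of the measured genes and for 5 of the 8 past 2-fold. Those 5 are shown, with Inhba first, then the ligands, the antagonist and the ubiquitin ligase that were lower. No window was held for Bmp2 and Acvrl1, the other higher genes, or for Tgfbr3. Capitals mark any match on either strand to 6 motifs, none of which contains another, and the rest is in lower case. The SMAD box was searched as CAGAC and its reverse complement. The SMAD element rich in G and C was GGCGCC. The E-box was CACGTG. The AP-1 site was TGACTCA. The TATA box was searched as TATAAA. The CCAAT box has the letters of its name. The window given for Inhba lies inside the annotated span of the gene.
Inhba (chr13:16011601-16011900, plus strand): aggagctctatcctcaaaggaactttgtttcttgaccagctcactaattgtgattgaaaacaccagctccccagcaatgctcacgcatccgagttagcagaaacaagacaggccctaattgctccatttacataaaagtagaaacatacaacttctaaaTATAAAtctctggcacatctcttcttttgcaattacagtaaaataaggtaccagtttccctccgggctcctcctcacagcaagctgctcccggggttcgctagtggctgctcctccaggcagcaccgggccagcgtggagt
Bmp4 (chr14:46390620-46390919, minus strand): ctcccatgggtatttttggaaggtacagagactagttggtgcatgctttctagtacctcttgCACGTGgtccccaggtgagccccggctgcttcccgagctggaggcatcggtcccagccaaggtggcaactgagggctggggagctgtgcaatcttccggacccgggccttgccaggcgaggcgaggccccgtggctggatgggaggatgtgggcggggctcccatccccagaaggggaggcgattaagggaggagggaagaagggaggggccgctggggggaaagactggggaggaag
Gdf10 (chr14:33923337-33923636, plus strand): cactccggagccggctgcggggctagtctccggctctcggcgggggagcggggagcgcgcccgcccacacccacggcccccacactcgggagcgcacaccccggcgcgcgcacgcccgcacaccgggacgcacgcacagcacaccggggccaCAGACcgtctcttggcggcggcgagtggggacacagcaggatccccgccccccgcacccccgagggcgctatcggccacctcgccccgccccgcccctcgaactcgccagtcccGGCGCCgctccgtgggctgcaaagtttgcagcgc
Fstl1 (chr16:37776805-37777104, plus strand): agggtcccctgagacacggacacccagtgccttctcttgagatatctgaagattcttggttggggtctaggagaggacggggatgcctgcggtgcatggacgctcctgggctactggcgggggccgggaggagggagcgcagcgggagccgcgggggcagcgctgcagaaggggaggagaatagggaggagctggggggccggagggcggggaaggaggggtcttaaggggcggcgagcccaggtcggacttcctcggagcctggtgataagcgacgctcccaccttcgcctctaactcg
Smurf2 (chr11:106920666-106920965, minus strand): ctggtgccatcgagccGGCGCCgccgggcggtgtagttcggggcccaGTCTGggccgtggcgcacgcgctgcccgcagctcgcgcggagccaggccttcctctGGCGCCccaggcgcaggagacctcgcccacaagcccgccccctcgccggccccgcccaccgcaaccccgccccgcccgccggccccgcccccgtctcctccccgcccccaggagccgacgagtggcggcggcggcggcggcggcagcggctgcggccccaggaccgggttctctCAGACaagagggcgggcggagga

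GC content was 47.7% for Inhba, 64.0% for Bmp4, 66.7% for Fstl1, 77.3% for Gdf10 and 80.3% for Smurf2, against a median of 52.7% over all 32851 windows of this length. Inhba was the only higher gene with a window, so these values do not compare higher with lower genes. The Inhba window held a TATA box and none of the other motifs. Bmp4 had 1 E-box, Gdf10 had 1 SMAD box and 1 GC-rich element, Smurf2 had 2 of each, and Fstl1 had no match. SMAD boxes of this length are common, in 49.6% of all windows and in 22 of 45 windows of the measured genes. The GC-rich element was in 11.9% of all windows and in 14 of those 45, the E-box in 7.2%, the TATA box in 13.6%, the CCAAT box in 37.4% and the AP-1 site in 5.2% of all windows. A match describes these letters only and is not a bound site.

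Genes around this core were read from 7 further lists, with 97 of 105 entries measured. Past 2-fold, 1 was higher (1.03%, against 1.59% of all named genes) and 8 lower (8.25%, against 3.85%), and the median log2 ratio was -0.12, against -0.07 over all named genes. The lists for ligand storage and for targets held the largest changes.

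Among 13 genes that store and activate the ligands in the matrix, 2 lay past 2-fold, both lower (15.4%, against 3.85% of all named genes). Fbn2, a fibrillin of the microfibrils that hold latent TGF-beta and BMPs, was 7.40-fold lower, from 1093.72 on the Control array to 147.87 on the AK156230 array, and its mean over both probe sets was -2.86. The other was the integrin gene Itgb8, dim at 43.42 and 16.18 and named after its value was seen. Among 11 further antagonists, 2 were lower (18.2%, against 3.85% of all named genes). They were Bmper, a secreted BMP-binding protein, with 602.20 and 257.00 (log2 ratio -1.23), and the chordin-like gene Chrdl1, with 72.48 and 26.97 (-1.43, but -0.69 over its 4 probe sets and -0.92 with the offset). None of 13 further ligands and of 7 further receptors and co-receptors was past 2-fold, and 8 of those ligands were dim.

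Of 21 known TGF-beta targets, 1 was higher (4.76%, a single gene, against 1.59% of all named genes) and 3 were lower (14.3%, against 3.85%), with a median log2 ratio of -0.09. Has2, a hyaluronan synthase, was 9.21-fold higher, with 84.54 and 778.43 (log2 ratio 3.20, and 3.36 over its 2 probe sets). Tgfbi, a matrix protein named for its induction by TGF-beta, was 5.21-fold lower, with 562.67 and 107.99, although without probe sets ending in _x_at or _s_at it was at -0.72. The collagen gene Col3a1 went from 4711.84 to 1599.46, 2.95-fold lower, and Snai2, a repressor of epithelial genes, from 1342.69 to 558.53, 2.40-fold lower. Of 9 BMP targets outside the ID family none was past 2-fold, and their log2 ratios ran from -0.49 to 0.79 with a median of -0.02.

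**Figure D4:**
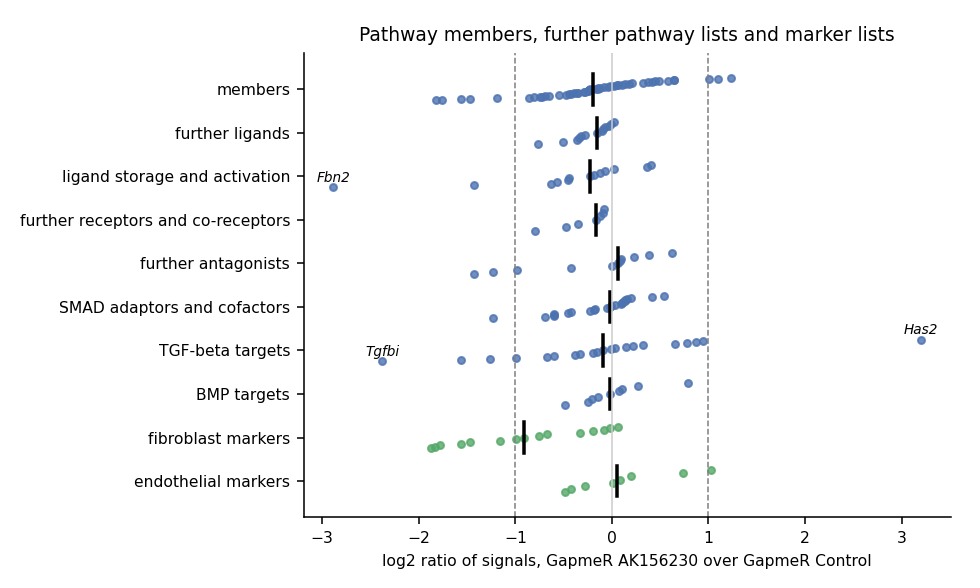
log2 ratio (AK156230 over Control) for each gene of the pathway list, of 7 further pathway lists (blue) and of fibroblast and endothelial markers (green), with a black bar at each median and dashed lines at 2-fold. Has2 (3.20) is the only further pathway gene past 2-fold on the right, and the fibroblast markers have a median of -0.91.

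Other values moved alongside these results, and their part in them was not tested. Fibroblast markers, which fit the labelled cell type by their bright signals (Vim had 6598.43 and 6211.66), were lower as a list: 6 of 15 lay past 2-fold, all of them lower (against 4.92% of bright named genes), their median log2 ratio was -0.91, and their summed signal was 50810.4 on the Control array and 33879.4 on the AK156230 array, none being at 0. Col3a1 belongs to that list too, as do Col1a1, Col1a2, Fn1 and Postn of the TGF-beta targets and Dcn of the further antagonists. The marker list is therefore not a separate reading from those pathway lists. Of the other marker lists, 1 of 9 keratinocyte, 2 of 10 leukocyte and 1 of 8 skeletal muscle markers were higher past 2-fold and none lower, and the median log2 ratios were 0.01, -0.28 and 0.12, with 8 of the 10 leukocyte markers below 0. Summed signals, Control first, were 497.6 and 721.8 for keratinocyte, 1615.7 and 1580.3 for leukocyte and 993.9 and 1628.3 for muscle markers. The higher keratinocyte sum came from Dsp (39.30 and 319.21), and the higher muscle sum from Chrna1 (39.66 and 418.27) and Acta1 (416.88 and 770.32), named after their values were seen. The higher leukocyte markers were Cd68 (108.03 and 274.59) and Cd14 (95.25 and 225.40), also named after their values were seen. The SMAD proteins and the ID genes had medians of -0.06 and -0.03.

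Genomic length also went with lower signals across the array: of bright named genes, 2.28% under 20 kb were lower by 2-fold or more, 5.12% of 40 to 80 kb, 8.30% of 80 to 160 kb and 25.4% over 160 kb. The pathway genes had a median length of 37.7 kb against 22.5 kb for bright named genes. Tgfbr3, at 183.1 kb, and Smurf2, at 100.7 kb, belong to the long classes, and so do Fbn2 (202.0 kb), Bmper (262.1 kb) and Chrdl1 (108.6 kb). Bmp4 (7.1 kb), Gdf10 (12.9 kb) and Snai2 (3.5 kb) do not, and Fstl1 spans 59.5 kb. Of the 13 measured pathway genes of 80 kb or more, 2 lay past 2-fold, both lower. They were 1 of 11 from 80 to 160 kb (9.09%, against 8.30% of bright named genes) and 1 of 2 over 160 kb (against 25.4%). Of 20 pathway genes under 20 kb, 2 were lower (10.0%, against 2.28% of bright named genes). A further 2 of these 20 were higher, against 137 of 5704 bright named genes under 20 kb.

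**Figure D5:**
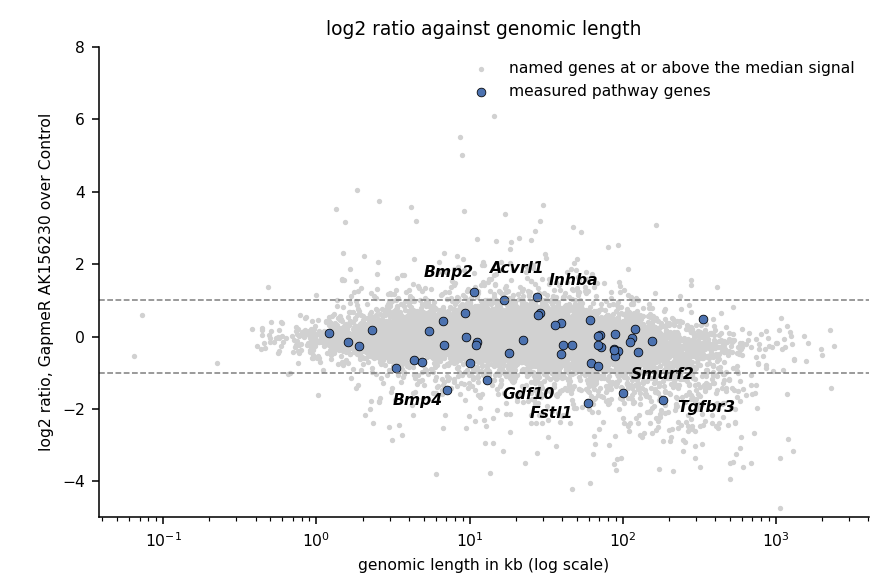
log2 ratio (AK156230 over Control) against genomic length in kb on a log axis, with bright named genes in grey, the 50 measured pathway genes in blue, names for the 8 past 2-fold and dashed lines at 2-fold. The higher genes run from 10.7 kb (Bmp2) to 27.4 kb (Inhba), and the lower ones run from 7.1 kb (Bmp4) to 183.1 kb (Tgfbr3).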

How the data were processed

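Gene expression was measured with 1 Affymetrix array for each of 2 transfections of young MEFs, without replicates. The deposited intensity values are MAS5 signals per the submitters' processing notes, and the methods name GeneChip Operating Software for the scans; its version and any scaling target were not stated there. Neither detection calls nor control probe sets were in the table, so RNA quality was not assessed. The methods name a porcine array, but the probe sets match the mouse annotation, which was used. Of 45037 probe sets, 34945 had 1 gene symbol and could be named, giving 18193 genes. Log2 ratios were taken without an offset. The SAM comparison of the methods needs replicate arrays, so no test was run. Pathway genes and all lists were chosen with earlier results of these data known. Genes given in full were those past 2-fold, those whose bright probe sets disagreed, Inhba (measured by RT-qPCR in the study) and the brightest of each role; from other lists, up to 4 bright genes past 2-fold. Signals of further pathway genes within 2-fold (such as Inha, Tgfb1, Gdf5, Tgfbr1, Eng, Fst, Grem1, Smad6, Smad7, Tgif1 and Id1) lie outside this rule and were added after their values were seen. Alternatives were median scaling, quantile normalization, loess, an offset, thresholds of 1.5-fold and 3-fold, a brightness limit, the mean of probe sets and leaving out _x_at and _s_at probe sets. The counting was tested on simulated data. Python 3.11.15, numpy 2.4.6, pandas 2.3.3, statsmodels 0.14.6 and matplotlib 3.10.9 were used.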

Additional observations from a re-analysis of the deposited data

How the results depend on the processing

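The counts of pathway genes past 2-fold (3 higher, 5 lower) were unchanged by scaling both arrays to the same median, by quantile normalization and by loess. Leaving out _x_at and _s_at probe sets could not change them, since no pathway gene had a representative probe set of that kind. Keeping bright genes only could not either, since all pathway genes past 2-fold were bright. With the offset the counts were 2 and 4, since Acvrl1 (0.84) and Gdf10 (-0.91) came within 2-fold. With the mean of all probe sets they were 2 and 3, since Inhba (0.42), Tgfbr3 (-0.67) and Smurf2 (-0.80) did. Each of these 3 rests on 1 of its probe sets. Bmp2, Bmp4 and Gdf10 have only 1 probe set and could not move in this setting. At 1.5-fold 5 genes were higher and 11 lower, and at 3-fold 0 were higher and 2 lower. Shares over all named genes were not counted at these thresholds, with the offset or with the mean of all probe sets. Those counts therefore have no background beside them and describe the listed genes only. The median log2 ratio of the pathway genes was -0.091 with arrays scaled to the same median, and no alternative run turned it above 0; the all-gene median was then 0.03. For the further lists that scaling gave 2 higher genes, 8 lower genes and a median of -0.017. Their count of lower genes was 6 with the offset and 9 with the mean of all probe sets. It was 7 without _x_at and _s_at probe sets and 7 with bright genes only. No gene past 2-fold changed sign under any alternative. Averaging probe sets turned the sign of Acvr2b (0.20), Bmpr2 (0.09) and Smad2 (-0.04), all within 2-fold. No paired analysis was possible because each condition had a single array. Precision is limited by having 1 array per condition: culture, transfection and hybridization cannot be told apart from the GapmeR.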

Other observations

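Adaptors and cofactors of the SMADs, a list of 23 genes that were all measured, had a median log2 ratio of -0.02. In this list 1 gene was lower by 2-fold or more (4.35%, against 3.85% of all named genes) and none was higher. The lower gene was Ep300, an acetyltransferase that serves as a coactivator for SMADs, with 522.39 on the GapmeR Control array and 223.12 on the GapmeR AK156230 array, 2.34-fold lower. It had a single probe set and spans 65.9 kb. Its close relative Crebbp had 584.19 and 642.87, a log2 ratio of 0.14 (-0.03 over its 4 probe sets), and Map3k7, the kinase TAK1 that TGF-beta and BMP receptors activate beside the SMADs, had the highest ratio of the list at 0.54. Crebbp and Map3k7 were named after their values were seen.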
